A study of Mus musculus with 6 samples.

Results

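The genes described here are the granins and the enzymes that process neuropeptides in *Kiss1* cells of the medial amygdala (MeA) of female mice. They were chosen by name as *Chga*, *Chgb*, *Scg2*, *Scg3*, *Scg5*, *Vgf*, *Pcsk1*, *Pcsk2*, *Cpe* and *Pam*, and all 10 are among the 13886 protein-coding genes in the table of expression values. The mice were KissRibo females (Kiss1Cre+/Rpl22HA+/+), in which cells with Kiss1 Cre carry an HA tag on the ribosomal protein Rpl22, so that an HA pulldown (IP) collects ribosome-bound mRNA. Ovaries were removed from each female at 8 weeks of age, estradiol (E2) was given for 4 days, and 7 days without E2 followed. The OVX group had no further treatment and the E2 group had a new E2 implant for 5 days, with 3 IP libraries in each group and MeA punches from 4 mice pooled for each library. The E2 pre-treatment was therefore shared by both groups. Cells that expressed Cre at any earlier time also carry the tag. By RT-PCR, the paper found *Kiss1* and *Cck* in IP RNA of KissRibo mice but not of Cre- mice. It found *Avp* in whole-punch RNA but not in IP RNA. Neither whole-punch RNA nor Cre- RNA was analysed here, so enrichment of the 10 genes over the surrounding tissue is not known.

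Granins are acidic proteins that aggregate in the trans-Golgi network and help to form dense core vesicles, the organelles in which neurons and endocrine cells store peptides. Neuropeptides are made as long precursors that prohormone convertases cut at pairs of basic residues. Carboxypeptidase E then trims the basic residues from the new ends, and peptidylglycine alpha-amidating monooxygenase amidates the carboxyl end of those peptides that carry a glycine there. Kisspeptin and cholecystokinin are among the peptides that are active in amidated form.

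Values are log2 CPM (counts per 1 M reads) from scaled library sizes of 28.1 to 34.2 M reads. Pearson correlations between libraries, across genes, lay between 0.977 and 0.989. Both rows of *Kiss1*, the gene that defines these cells, were low, with mean log2 CPM of 2.70 and 0.40 over the 6 libraries. The row of 2.70 is a gene model that overlaps the other and that GENCODE names *Gm28040*, so how the reads were split between both is uncertain. Markers of neurons were high (*Snap25* 10.97), but so were single markers of other cells. These were *Mbp* of oligodendrocytes (9.68), *Ttr* of choroid plexus (9.39) and *Gfap* of astrocytes (7.81). Other markers of the same lists were lower, such as *Mog* of oligodendrocytes (4.28) and *Aldh1l1* of astrocytes (4.93). For choroid plexus, *Kl* was at 4.67, *Folr1* at 1.86, *Aqp1* at 1.84 and *Kcne2* at 1.76. Of the genes in 11 lists of markers, 0 passed the test between treatments. The summed CPM of 5 markers of excitatory neurons typical of other forebrain regions (*Slc17a7*, *Neurod2*, *Neurod6*, *Tbr1* and *Emx1*) ran from 876 to 1128 in OVX and from 663 to 866 in E2 libraries, and none of the 5 was at 0. The anterior pituitary list, of which 3 of 8 genes were listed (*Prl*, *Gh* and *Pomc*), summed to 1029 CPM in OVX replicate 2 and to between 2.02 and 228 CPM in the other libraries.

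Most granins and processing enzymes were among the abundant mRNAs. Per kilobase of the longest annotated transcript, *Cpe*, the carboxypeptidase, had the highest level of the 10 genes, with a mean log2 CPM per kilobase of 9.40, which ranked 18 of the 13881 genes with a transcript length. *Scg2* followed with 9.25 at rank 24, and the ranges of both genes over the 6 libraries overlapped. The next levels per kilobase were 7.78 for *Vgf* (rank 201), 7.66 for *Scg5* (rank 217) and 7.64 for *Chgb* (rank 219). These neighbours overlapped in their ranges, and *Scg5* was above *Chgb* in 3 of the 6 libraries. *Chga* stood lower with 7.04 (rank 369), below *Chgb* and above *Pcsk2* in 6 of 6 libraries with no overlap of the ranges. The levels per kilobase of *Pcsk2* (6.28, rank 764), *Scg3* (6.20, rank 824) and *Pam* (6.14, rank 867) overlapped. *Pcsk1* had the lowest level of the 10 genes, 3.82 per kilobase at rank 4651, with a gap of 2.32 on the log2 scale to *Pam*. It was still above the median of all genes, 2.97 per kilobase. *Pcsk2* was thus above *Pcsk1*, the other convertase, in every library.

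**Figure D1:**
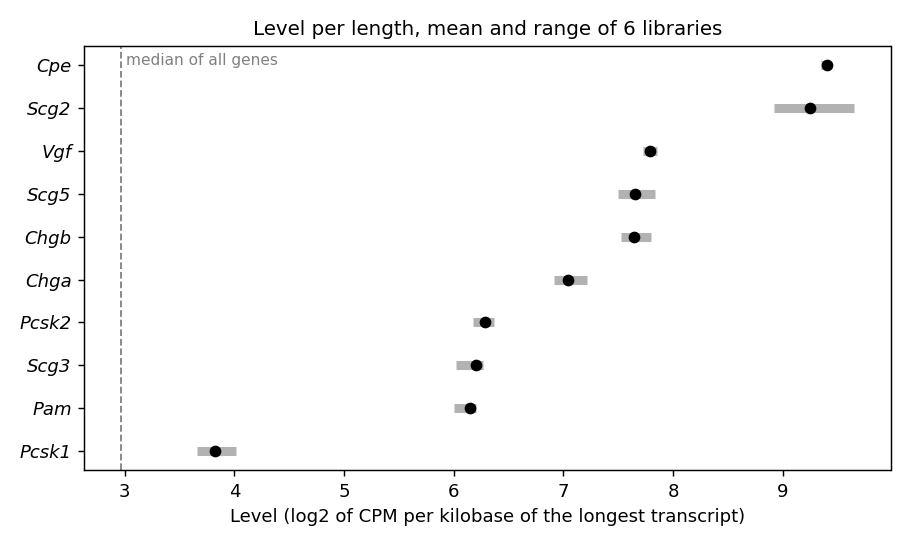
Level of each gene as log2 CPM per kilobase of the longest transcript, where points are the mean and grey bars the range of the 6 libraries, and the dashed line is the median of all genes (2.97). *Cpe* (9.40) and *Scg2* (9.25) lie above the other genes, and *Pcsk1* (3.82) lies below them.

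Promoters of several of these genes are known for a cAMP response element, the site bound by CREB. The RefSeq promoter table (GRCm38.p6) was searched for it. The genes were not chosen by promoter sequence, but the site was picked because some of them are known to carry it. The counts of this site below are therefore a description and no independent evidence. The windows cover 250 bases before to 50 bases after each RefSeq start, and 8 of the 10 genes had a window (not *Vgf* and *Cpe*). Both strands were searched. The full palindromic site, TGACGTCA, was present in the windows of *Scg2*, *Chgb* and *Pcsk1*, 3 of the 8 genes, compared with 2.03% of the 27025 genes in the table. The core of the site, TGACG, which the full site contains, was present in 7 of the 8 genes, against 23.0% of all genes, and *Pam* had none. The palindromic estrogen response element (GGTCA and TGACC with any 3 bases between them) was in 0 of the 8 and in 0.0740% of all genes. The following stretches of 30 bases, written 5′ to 3′ on the strand of the gene with the full site or its core in capitals, show these matches, and in *Pcsk2* the core is on the opposite strand and reads CGTCA.
*Scg2* chr1:79440076-79440105 (minus strand): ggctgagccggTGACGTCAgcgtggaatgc
*Chgb* chr2:132781559-132781588 (plus strand): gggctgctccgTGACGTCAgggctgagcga
*Pcsk1* chr13:75089768-75089797 (plus strand): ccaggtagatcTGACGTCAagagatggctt
*Chga* chr12:102554886-102554915 (plus strand): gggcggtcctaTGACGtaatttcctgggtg
*Scg3* chr9:75684068-75684097 (minus strand): cgctgggtcgcTGACGccatcctcacgcct
*Scg5* chr2:113829248-113829277 (minus strand): aaggaggtaaaTGACGttcataggggtcga
*Pcsk2* chr2:143546088-143546117 (plus strand): tggcgggcgcgCGTCAcccgggctggcgct
The full sites lay at like distances before the RefSeq start, with their first base at 68 bases in *Scg2*, 72 in *Chgb* and 78 in *Pcsk1*. GENCODE starts *Scg2* and *Chgb* further upstream than RefSeq, so that these stretches lie inside the gene span it gives. A match describes the letters only, and binding was not measured.

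The comparison of E2 with OVX libraries addressed whether E2 altered these transcripts in MeA *Kiss1* cells. With limma on the log2 CPM and Benjamini-Hochberg adjustment over all genes, 0 of the 10 genes passed an adjusted p of 0.05, where 0.288% of all genes did (40 of 13886; 0.23% higher and 0.0576% lower with E2). At an unadjusted p under 0.05 there were 3 of the 10, *Scg2* and *Pcsk1* with higher and *Pcsk2* with lower values with E2, against 8.56% of all genes (4.21% higher and 4.34% lower). This count was 1 without E2 replicate 1 (*Scg2*), 2 without OVX replicate 1 and 4 without E2 replicate 3. These 3 genes were also those whose groups did not overlap, which held for 13.7% of all genes (6.85% higher and 6.82% lower). *Scg2* came closest to the threshold (adjusted p = 0.0608), and with voom weights on rebuilt counts, the alternative nearest to the method of the study, it passed (adjusted p = 0.0453). In the paper's own test, which used voom, *Scg2* was among the transcripts significantly higher with E2. The difference was above 0 for 6 of the 10 genes and for 51.1% of all genes. The median difference of the 10 genes was 0.02 on the log2 scale, against 0.0034 for all genes. In such pooled IP RNA, fewer *Kiss1* cells and less RNA per cell cannot be told apart.

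**Figure D2:**
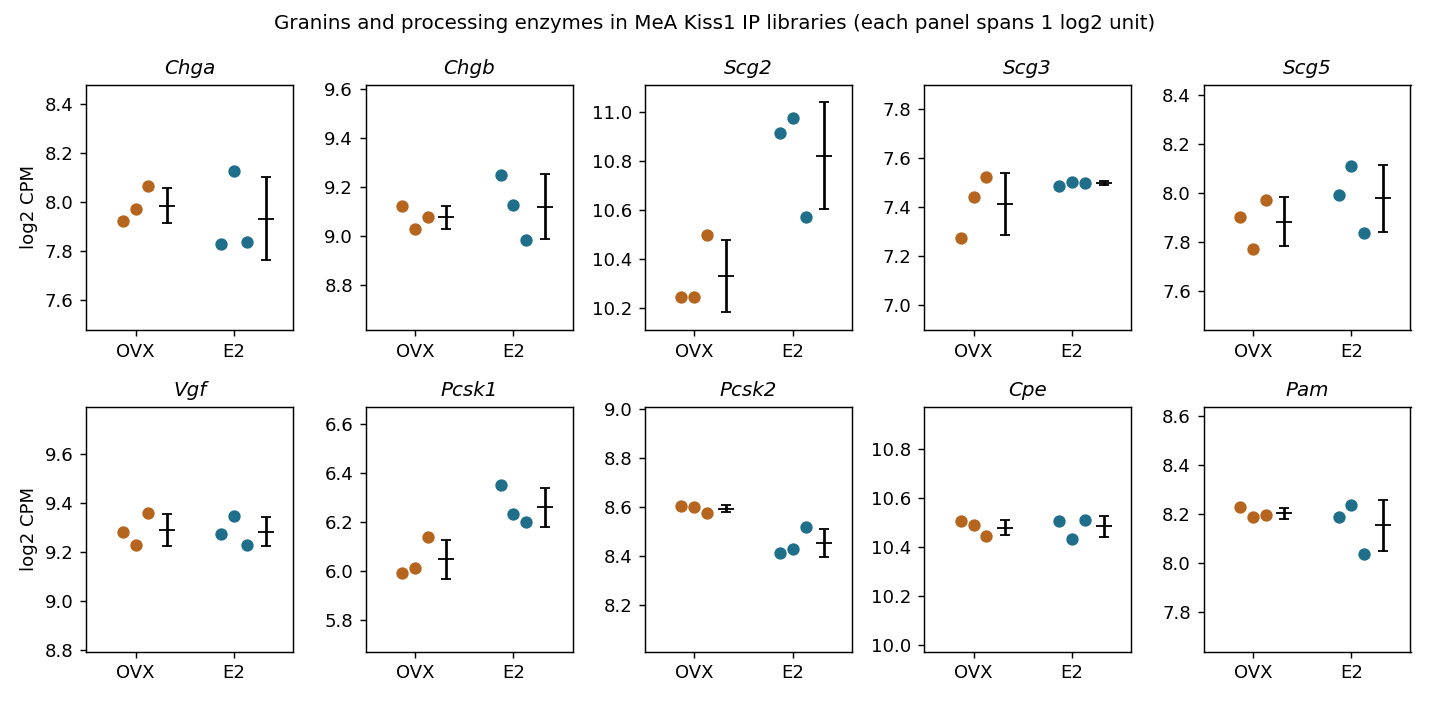
Log2 CPM of each gene in each of the 3 OVX and 3 E2 libraries (points, replicates 1 to 3 from left to right), with the mean and SD beside them, where every panel spans 1 log2 unit. The E2 libraries lie above all OVX libraries for *Scg2* and *Pcsk1* and below them for *Pcsk2*.

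*Scg2* encodes secretogranin II, the precursor of secretoneurin (ENSMUSG00000050711, GRCm38 chromosome 1 from 79434669 to 79440120, minus strand). Its log2 CPM was 10.25, 10.25 and 10.50 in OVX replicates 1, 2 and 3 and 10.92, 10.98 and 10.57 in E2 replicates 1, 2 and 3. Each E2 library was above each OVX library, but E2 replicate 3 and OVX replicate 3 were only slightly apart. The means were 10.33 ± 0.15 (SD, n = 3) and 10.82 ± 0.22 (SD, n = 3), a log2 difference of 0.49 (SE 0.10, 95% interval 0.28 to 0.70), or 1.41-fold. Of all 13886 genes it ranked 46 by p. The excitatory markers named above had a lower summed level in each E2 than in each OVX library, with 5 of 5 genes below 0 and 0 past the test. An unadjusted limma p under 0.05 was found for 4 of the 5, all lower with E2, where 4.34% of all genes were. The median difference of these markers was -0.42, and their part in the difference of *Scg2* was not tested. The summed pituitary markers were 6.35, 1029 and 81.5 CPM in OVX and 124, 228 and 2.02 CPM in E2 replicates 1, 2 and 3, and their part in it was not tested. Without OVX replicate 2, which had the highest of these sums, the difference of *Scg2* was 0.45 (adjusted p = 0.124).

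The call for *Scg2* depended on how the values were fitted and on single libraries. It passed in 5 of 17 alternatives, and the log2 difference was positive in all 17, from 0.41 without E2 replicate 2 to 0.62 without E2 replicate 3. Without E2 replicate 3 the adjusted p was 0.00458, and without OVX replicate 3 it was 0.0405. Without OVX replicate 1 it was 0.326. The adjusted p was 0.582 in a fit with neither trend nor weights, and 0.383 with robust empirical Bayes.

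**Figure D3:**
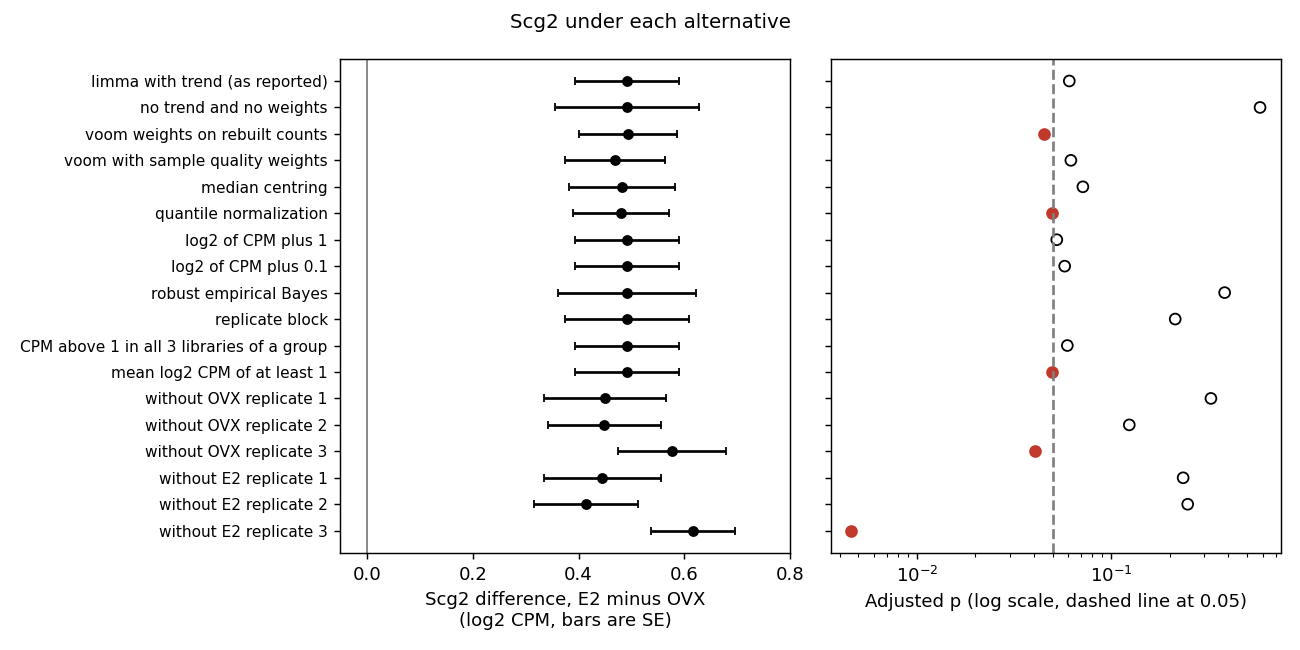
Left, log2 difference of *Scg2* between E2 and OVX libraries with its SE in the fit as reported and in 17 alternatives; right, its adjusted p on a log scale, filled below 0.05. The difference stays between 0.41 and 0.62, while the adjusted p runs from 0.00458 to 0.582.

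The chromogranins, the founding members of the family, differed little between treatments. *Chga* (ENSMUSG00000021194, chromosome 12 from 102554969 to 102565028) had log2 CPM of 7.92, 7.97 and 8.06 in OVX and 7.83, 8.12 and 7.84 in E2 libraries, a difference of -0.05 (95% interval -0.22 to 0.11, adjusted p = 0.913). *Chgb* (ENSMUSG00000027350, chromosome 2 from 132781278 to 132795079) had 9.12, 9.03 and 9.08 in OVX and 9.25, 9.13 and 8.98 in E2 libraries. Its difference was 0.04 (95% interval -0.10 to 0.19, adjusted p = 0.923). The groups overlapped for both genes, and for *Chga* the highest value of all was in E2 replicate 2. Without that library the difference of *Chga* was -0.15 (adjusted p = 0.695), and without E2 replicate 1 it was -0.0026.

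*Vgf* encodes a neurotrophin-inducible granin-like protein that is cut into many peptides (ENSMUSG00000037428, chromosome 5 from 137026392 to 137033351). Its log2 CPM was 9.28, 9.23 and 9.36 in OVX and 9.27, 9.35 and 9.23 in E2 libraries, a difference of -0.01 (95% interval -0.13 to 0.12, adjusted p = 0.989). The range over all 6 libraries was 0.13, the second smallest of the 10 genes after *Cpe*. The groups overlapped, and the sign of its difference turned in 3 of the 17 alternatives.

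*Scg3* encodes secretogranin III, which links chromogranin A to the cholesterol-rich vesicle membrane (ENSMUSG00000032181, chromosome 9 from 75643189 to 75684056). Its log2 CPM was 7.27, 7.44 and 7.52 in OVX and 7.49, 7.50 and 7.50 in E2 libraries, a difference of 0.08 (95% interval -0.06 to 0.23, adjusted p = 0.797). The E2 libraries lay close together, inside the range of the OVX libraries, and without OVX replicate 1 the difference was 0.02. *Scg5* encodes 7B2, the chaperone that keeps the product of *Pcsk2* soluble and lets it mature (ENSMUSG00000023236, chromosome 2 from 113776362 to 113829121). It had 7.90, 7.77 and 7.97 in OVX and 7.99, 8.11 and 7.83 in E2 libraries, a difference of 0.10 (95% interval -0.06 to 0.25, adjusted p = 0.796). E2 replicates 1 and 2 were above all OVX libraries for *Scg5*, and E2 replicate 3 was not. The difference of *Scg5* was 0.03 without E2 replicate 2, 0.04 without OVX replicate 2 and 0.17 without E2 replicate 3.

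The convertases had values in opposite directions. *Pcsk1* encodes PC1/3, which makes the early cuts in many precursors (ENSMUSG00000021587, chromosome 13 from 75089826 to 75134861). Its log2 CPM was 5.99, 6.01 and 6.14 in OVX and 6.35, 6.23 and 6.20 in E2 libraries. Each E2 library was above each OVX library, with a difference of 0.21 (SE 0.07, 95% interval 0.06 to 0.36, adjusted p = 0.397), or 1.16-fold. *Pcsk2* encodes PC2, which cuts later and to smaller peptides (ENSMUSG00000027419, chromosome 2 from 143546156 to 143816285). Its log2 CPM was 8.60, 8.60 and 8.58 in OVX and 8.41, 8.43 and 8.52 in E2 libraries. Each E2 library was below each OVX library, with a difference of -0.14 (SE 0.05, 95% interval -0.25 to -0.03, adjusted p = 0.454). Neither gene passed in any of the 17 alternatives, in which the difference of *Pcsk1* stayed between 0.17 and 0.26 and that of *Pcsk2* between -0.17 and -0.12. Of the exonic bases of *Pcsk2*, 359 are shared with 2 antisense genes, *Pcsk2os1* and *Pcsk2os2*, whose reads an unstranded library cannot tell apart.

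The enzymes that finish the peptides showed no difference beyond the spread between libraries. *Cpe* (ENSMUSG00000037852, chromosome 8 from 64592542 to 64693054) had log2 CPM of 10.50, 10.49 and 10.44 in OVX and 10.51, 10.43 and 10.51 in E2 libraries, a difference of 0.01 (95% interval -0.11 to 0.12, adjusted p = 0.992). Its range over all 6 libraries was 0.08, the smallest of the 10 genes. *Pam* (ENSMUSG00000026335, chromosome 1 from 97795114 to 98095646) had 8.23, 8.19 and 8.20 in OVX and 8.19, 8.24 and 8.04 in E2 libraries, a difference of -0.05 (95% interval -0.18 to 0.08, adjusted p = 0.896). For *Pam*, E2 replicate 3 was the lowest library and E2 replicate 2 the highest. Of the exonic bases of *Pam*, 188 are shared with *B230216N24Rik*, annotated as a processed transcript on the same strand.

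**Figure D4:**
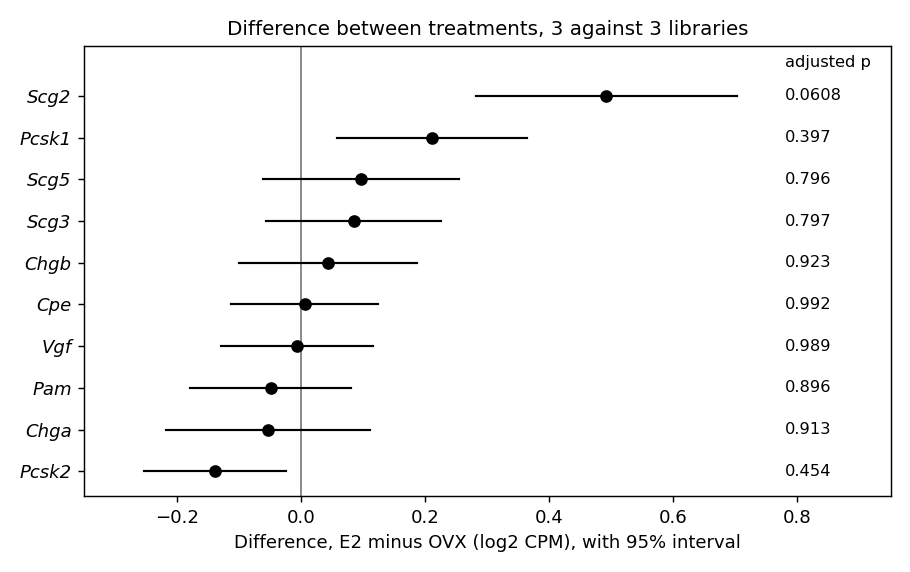
Log2 difference between E2 and OVX libraries for each gene with its 95% interval from limma, and the adjusted p over 13886 genes at the right. The intervals of *Scg2*, *Pcsk1* and *Pcsk2* leave out 0, and the adjusted p of 0 genes is under 0.05.

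Ratios of 2 genes within the same library do not depend on how libraries were scaled, and 6 pairs were compared by an exact two-sided permutation test. With 3 against 3 libraries this test cannot give a p below 0.1. The log2 ratio of *Scg2* to *Chgb* was 1.13, 1.22 and 1.42 in OVX and 1.67, 1.85 and 1.59 in E2 libraries, a difference of 0.45 in the means (exact permutation p = 0.1, adjusted over 6 pairs 0.12). *Scg2* was thus higher relative to *Chgb* in each E2 than in each OVX library. The same p was found relative to *Chga* (difference 0.55), *Vgf* (0.50) and *Scg3* (0.41), again with no overlap of the groups. All of these ratios use the *Scg2* values given above and are no separate evidence for its difference. The log2 ratio of *Pcsk1* to *Pcsk2*, the balance of both convertases, was -2.61, -2.58 and -2.44 in OVX and -2.06, -2.20 and -2.32 in E2 libraries (difference 0.35). That it was higher in every E2 library follows from the values of both genes given above and is no separate evidence. The log2 ratio of *Scg5* to *Pcsk2*, chaperone to client, overlapped between groups, at -0.70, -0.83 and -0.61 in OVX and -0.43, -0.32 and -0.68 in E2 libraries (difference 0.23, exact permutation p = 0.2, adjusted 0.2). These pairs share genes and are not independent of each other.

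Summed over the 10 genes, the level was 5294 ± 170 CPM (SD, n = 3) in OVX and 5829 ± 348 CPM (SD, n = 3) in E2 libraries, and the groups overlapped. Without *Scg2* the sums were 4001 ± 49.6 and 4004 ± 85.8 CPM (SD, n = 3 each), which differed by less than the spread between libraries. *Scg2* took 23.2%, 23.5% and 26.4% of the summed CPM in OVX and 32.3%, 33.2% and 28.1% in E2 libraries. *Cpe* took the largest share in OVX replicates 1 and 2, while *Scg2* did in OVX replicate 3 and in all E2 libraries. These shares are of reads and not per length.

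The other genes of the pathway were described from 5 lists. Of the other prohormone processing genes, 14 of 15 were listed (not *Cpz*), 0 passed the test, 7 were above and 7 below 0, and the median difference was -0.01. Their highest levels were those of *Cpd*, a Golgi carboxypeptidase of similar activity to *Cpe*, and *Mbtps1*, the site-1 protease. *Cpd* had log2 CPM of 7.09, 6.97 and 6.97 in OVX and 6.87, 6.65 and 6.82 in E2 libraries, each E2 library being below each OVX library (difference -0.23, SE 0.07, adjusted p = 0.316). *Mbtps1* had a difference of 0.07 (adjusted p = 0.828), and *Pcsk5*, a convertase of the constitutive pathway, had 0.35 (SE 0.17, adjusted p = 0.600) with groups that overlapped. Both granin-like genes beyond the 10, *Pcsk1n*, whose product proSAAS inhibits PC1/3, and *Gnas*, were listed with differences of -0.03 and -0.04 (adjusted p = 0.946 and 0.906). The *Gnas* row covers a locus of several products, of which only one is granin-like.

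The genes that supply copper and ascorbate to the product of *Pam* numbered 5, of which 5 were listed, 0 passed and 4 were below 0, with a median difference of -0.12. *Slc23a2*, an ascorbate transporter, was lower in each E2 than in each OVX library (difference -0.12, SE 0.06, adjusted p = 0.657). *Cyb561*, which passes electrons into the vesicle, had -0.06 (adjusted p = 0.904), and *Atp7a*, the copper pump, was low, with a mean log2 CPM of 1.44 (difference -0.63, SE 0.34, adjusted p = 0.671).

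All 27 genes for the formation and release of dense core vesicles were listed, 0 passed the test, 10 were above and 17 below 0, and the median difference was -0.03. *Kif1a*, the motor that carries these vesicles, had the highest mean log2 CPM of the list, 10.87, with a difference of -0.13 (SE 0.08, adjusted p = 0.728). *Ptprn* (9.85) and *Ptprn2* (8.37) encode IA-2 and phogrin, transmembrane proteins of the vesicle. *Ptprn2* had log2 CPM of 8.59, 8.43 and 8.43 in OVX and 8.23, 8.27 and 8.29 in E2 libraries, with no overlap (difference -0.22, SE 0.06, adjusted p = 0.212), whereas *Ptprn* overlapped (difference -0.05, SE 0.06, adjusted p = 0.863). *Syt7*, a slow calcium sensor of release, was lower in each E2 library too (difference -0.20, SE 0.07, adjusted p = 0.422). In all, 4 of the 27 genes had groups that did not overlap with lower values with E2, against 6.82% of all genes. The groups of 2 genes, *Ccdc186* and *Ica1*, did not overlap with higher values with E2, against 6.85% of all genes.

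Of the neuropeptide precursors, the cargo of these vesicles, 23 of 41 genes were listed, in 24 rows since *Kiss1* has 2 rows. Of the 24 rows, 2 passed the test, both higher with E2, where 0.23% of all genes did. *Kiss1* (the row of the longer gene model) had log2 CPM of 2.29, 1.82 and 1.13 in OVX and 3.72, 3.80 and 3.45 in E2 libraries. *Gal*, the precursor of galanin, had 1.26, 0.44 and 1.01 in OVX and 3.23, 3.13 and 2.48 in E2 libraries. Both rose in each E2 library, *Gal* by a log2 difference of 2.04 (SE 0.29, adjusted p = 0.00609) and *Kiss1* by 1.91 (SE 0.26, adjusted p = 0.00475). In all, 16 of the 24 rows were above 0, with a median difference of 0.12. The highest levels were those of *Cck* and *Penk*, with mean log2 CPM of 9.09 and 8.37. *Cck* was higher in each E2 library but did not pass (difference 0.24, SE 0.07, adjusted p = 0.295). The other 18 precursors are not in the table and were not analysed here.

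**Figure D5:**
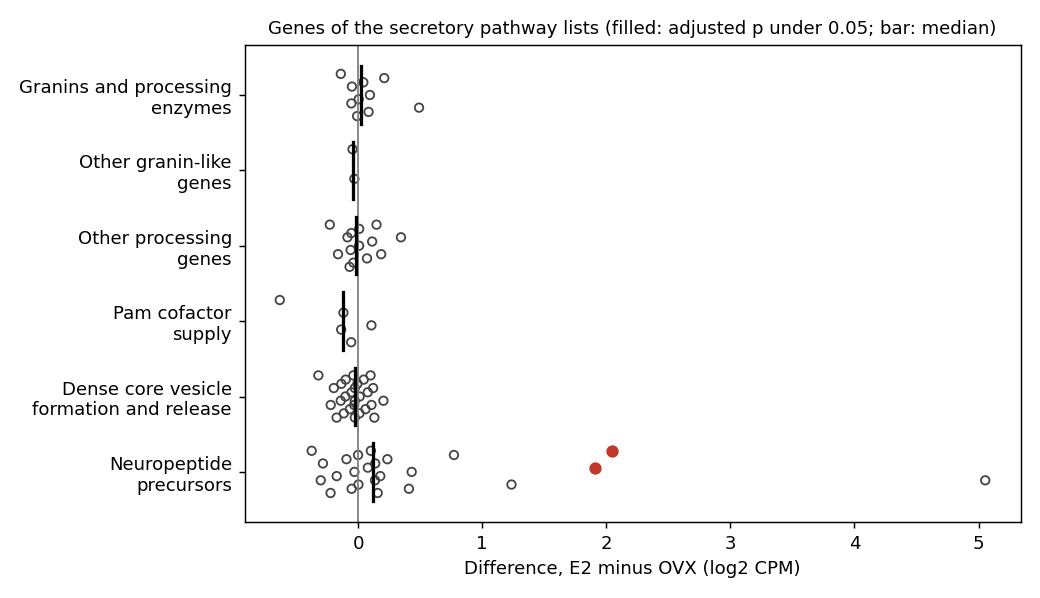
Log2 difference between E2 and OVX libraries for the genes of 6 lists, one circle per row, filled where the adjusted p is under 0.05, with the median of each list as a bar. The 2 filled points are *Kiss1* and *Gal* among the precursors, and the open point at 5.05 is the other *Kiss1* row. The size of its fitted value is raised by OVX replicate 1, which is at the lowest value of that library. OVX replicates 2 and 3 had log2 CPM of -0.65 and 0.10 in this row, and E2 replicates 1, 2 and 3 had 2.97, 3.18 and 2.65.

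Among the 6308 genes with a mean log2 CPM of at least 5, those whose log2 CPM over the 6 libraries was most like that of *Scg2* were *Negr1*, *Mob4*, *Map7d2*, *Tmem158* and *Pcmt1*, with Pearson r from 0.981 to 0.993. This is a description over 6 libraries that differ in depth and treatment. The 5 genes were picked as the highest of 6308 correlations, so high values of r come in part from that choice. Their differences with E2 ran from 0.05 for *Mob4* to 0.26 for *Tmem158*, smaller than that of *Scg2*, and 0 of the 5 passed the test.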

How the data were processed

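Single-end reads of 6 poly(A)-selected, unstranded RiboTag IP libraries were trimmed by the authors with Trimmomatic 0.38, aligned with STAR 2.6.0a to GRCm38 and quantified with RSEM (Ensembl release 98), and genes were limited to protein-coding ones with a mean CPM over 1 in a treatment group. The deposited values are log2 CPM with TMM-scaled libraries, made by the authors with voom. Another deposited table holds the authors' own fold changes and p-values and was not used. The deposited log2 CPM were tested with limma 3.58.1 (R 4.3.3), with a mean-variance trend and no term but treatment, and Benjamini-Hochberg adjustment over 13886 genes at 0.05. Differences are E2 minus OVX, with moderated 95% intervals. The pipeline was tested on simulated data.

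The scaled library size was computed by taking the lowest log2 CPM as a count of 0 plus 0.5. Depth limits low genes most, and the median SE of a difference was 0.11. The p-values measure the spread between pools of 4 mice and not between single mice. Gene positions and transcript lengths came from GENCODE mouse release 21 (GRCm38), and promoters from RefSeq (GRCm38.p6).

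Genes named are the 10 chosen by name, and of each pathway list those called, the 2 highest in level and the 2 with the smallest p, with the 5 genes most like *Scg2*. Of the marker lists only totals and single genes are given. The genes and lists were chosen with earlier results of these data known. The 11 marker lists were neuron, GABA neuron, astrocyte, oligodendrocyte, microglia, endothelial and mural, choroid plexus, excitatory neurons of other forebrain regions, striatal neuron, anterior pituitary and immediate early. One gene of the excitatory list is not reported here, and its values were left out of the list's totals. Alternatives were other weights, scalings, pseudocounts and filters, robust empirical Bayes, a replicate block, and each library left out in turn.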

Additional observations from a re-analysis of the deposited data

How the results depend on the processing

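The count of genes called among all 13886 was 40, fell to 0 without trend and weights (with 1017 genes at an unadjusted limma p under 0.05, among them *Scg2* at 0.0112), and ran from 20 to 66 with each library left out, with 21 without OVX replicate 1, 26 without E2 replicate 1, 20 without E2 replicate 2 and 66 without E2 replicate 3. Of the 10 granins and processing enzymes, 0 were called as reported and 0 to 1 with each library left out. With voom weights, quantile normalization or a mean log2 CPM of at least 1 it was 1, each time *Scg2*, with differences of 0.49, 0.48 and 0.49 and adjusted p-values of 0.0453, 0.0493 and 0.0494. Leaving out a library moved *Scg2* from 0.41 to 0.62. The other adjusted p-values of *Scg2* were 0.0619 with sample quality weights, 0.0714 with median centring, 0.0524 and 0.0576 with CPM plus 1 or 0.1, and 0.0594 with the filter on all 3 libraries of a group. *Scg2*, *Chga*, *Scg3*, *Scg5*, *Pcsk1* and *Pcsk2* kept their direction in all 17 alternatives, but with a library left out *Chga* ran from -0.151 to -0.00256, *Scg3* from 0.0161 to 0.140, *Scg5* from 0.0305 to 0.167, *Pcsk1* from 0.166 to 0.257 and *Pcsk2* from -0.171 to -0.119. The count of the 10 at an unadjusted p under 0.05, 3 as reported, was 2 without trend and weights and with the replicate block, and 1 to 4 with a library left out. Differences near 0 changed sign: *Cpe* was -0.00387 with median centring and between -0.0125 and 0.0303 with a library left out, *Vgf* was 0.0569 with quantile normalization and between -0.0395 and 0.0266, *Chgb* was between -0.0222 and 0.111 and *Pam* between -0.0915 and 0.00849. The cause was not tested. The 6 ratios kept their direction without each library and with CPM plus 1, among them *Scg2* to *Chgb* (0.37 to 0.53) and *Pcsk1* to *Pcsk2* (0.29 to 0.41). Libraries with the same replicate number did not deviate together (correlations across genes of -0.02, -0.12 and -0.08). With the replicate number as a block, 35 genes and 0 of the 10 were called, with *Scg2* at 0.49 (adjusted p = 0.213).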

Other observations

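The marker list of immediate early genes had 7 of 7 genes listed, of which 0 passed the test. A lower mean with E2 was found for 6 of the 7, with a median log2 difference of -0.18 against 0.0034 for all genes. The summed CPM ran from 346 to 433 in OVX and from 293 to 396 in E2 libraries, which overlapped. For *Nr4a1* the difference was -0.38 (SE 0.15, limma adjusted p = 0.482) and for *Egr1* it was -0.13 (SE 0.08, adjusted p = 0.729), and the groups overlapped for both. For the 1 gene of the list above 0 it was 0.32.

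The GABA neuron list had 3 of 3 genes listed, all above 0. *Gad2*, which makes GABA, was 0.31 higher in the mean (SE 0.09, adjusted p = 0.251) with no overlap of the groups. Groups without overlap and with higher values with E2 were found for 6.85% of all genes. The groups overlapped for *Gad1* (difference 0.15) and *Slc32a1* (difference 0.11). The summed CPM of the list ran from 358 to 434 in OVX and from 423 to 509 in E2 libraries, which overlapped. Of the other lists, the median log2 difference was 0.13 for astrocyte, 0.10 for oligodendrocyte, -0.05 for microglia, 0.12 for endothelial and mural, -0.40 for choroid plexus, -0.03 for striatal neuron and 0.02 for neuron genes. It was -1.52 for the 3 anterior pituitary genes listed, with differences from -2.99 to 0.0032 and groups that overlapped. It was -0.42 for the excitatory neurons of other forebrain regions, of which 5 of 5 were below 0.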
